A study of Homo sapiens with 12 samples.

Results

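The genes that encode the small nuclear RNAs (snRNAs) made by RNA polymerase II were examined for binding of RNaseH1-D210N and REXO4-D386A. They were taken as every gene of the hg38 RefSeq table with the biotype snRNA on an assembled chromosome, leaving out symbols that begin with RNU6 and the gene RN7SK, whose RNAs are made by RNA polymerase III. This gave 142 of 58961 genes. A peak was assigned to a gene if at least 1 bp of it fell in the gene or in the flanking 1 kb on either side. Of the 142 genes, 35 carry U gene names, 79 are unnamed models with LOC symbols, and 28 are SNAR genes. The RNA class and polymerase of the unnamed models were not determined here, so some may not be polymerase II genes. The SNAR genes encode small RNAs bound by the protein NF90, are transcribed by RNA polymerase III and have no part in splicing, but they enter by their biotype and are described apart.

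The cells were U2OS, a human osteosarcoma line, with a tetracycline-inducible Flag-tagged transgene for a protein whose nuclease activity is abolished by a point mutation. RNaseH1 is the enzyme that degrades RNA paired with DNA, and REXO4 belongs to a family of RNA exonucleases, and the study asked whether both sit at R-loops, where RNA pairs with one DNA strand and the other strand is displaced. Of the 12 libraries, 6 came from each line, in 8 groups: REXO4-D386A or RNaseH1-D210N cells, with doxycycline at 1 µg/ml or without it for about 60 h, each as 2 Flag ChIP libraries and 1 input library. All groups carry the transgene, the endogenous protein was not stated to be removed, and the labels do not say whether a line is a single clone. The values used were 2 peak lists, 1 per protein. No value per library was analysed, so no difference below has a replicate error and none was tested. Library depth is unknown. The RNaseH1-D210N list holds 54623 peaks and the REXO4-D386A list 1460.

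Transcription of these genes by RNA polymerase II starts from a proximal sequence element bound by the complex SNAPc, helped by a distal element with an octamer bound by POU2F1 (Oct-1) and often a site for ZNF143. The Integrator complex cuts the transcript's 3′ end, and the RNA is then assembled with Sm proteins. In the spliceosome, U1 recognises the 5′ splice site, U2 the branch point, U4 holds U6 until activation and U5 aligns the exons. U11, U12 and U4atac serve the minor spliceosome, which removes a rare class of introns, and U7 directs 3′ end cutting of histone mRNAs.

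The sequences that could be shown are those of protein-coding promoters lying under the strongest peak of a named U gene, since RefSeq promoter sequence was at hand for the neighbours. They are RefSeq sequence of build GRCh38.p14. The first is the 250 bases before the start of SIRT4, a mitochondrial sirtuin gene, on the plus strand at chr12:120291939-120292188. It lies 36 bp from RNU4-2 and wholly inside the peak that has the highest fold of any named U gene. Capitals mark a match to the start of a proximal sequence element (TNACCNNNA, found on the reverse strand as TGAGGGTGA, bases 19 to 27) and the octamer ATGCAAAT (bases 187 to 194).
SIRT4: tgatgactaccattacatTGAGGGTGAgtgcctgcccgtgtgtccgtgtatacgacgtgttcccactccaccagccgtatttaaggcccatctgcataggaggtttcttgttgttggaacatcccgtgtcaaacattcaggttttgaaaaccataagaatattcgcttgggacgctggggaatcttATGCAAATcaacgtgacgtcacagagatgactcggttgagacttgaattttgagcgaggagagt
The first match lies 54 bp from RNU4-2 and the octamer 222 bp from it. On both strands, ATGCAAAT occurs in 1.66% of 27305 promoters of the same length and TNACCNNNA in 26.0%, so a match to the second is common. A match is a description of letters, not a site.

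The second is the 250 bases before a start of C12orf57, on the plus strand at chr12:6943772-6944021. By the RefSeq gene coordinates RNU7-1 lies within C12orf57, so this start lies inside that gene. It is shown because it contains the whole of RNU7-1, marked in capitals (bases 45 to 107), and 199 of its bases lie inside the RNaseH1-D210N peak.
C12orf57: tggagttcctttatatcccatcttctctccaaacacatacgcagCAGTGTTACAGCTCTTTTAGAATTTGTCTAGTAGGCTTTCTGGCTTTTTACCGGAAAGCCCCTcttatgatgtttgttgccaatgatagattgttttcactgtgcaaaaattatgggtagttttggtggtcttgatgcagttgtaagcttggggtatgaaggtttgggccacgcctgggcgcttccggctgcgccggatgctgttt
A match to TATAAA on the reverse strand (bases 10 to 15) lies 30 bp from RNU7-1, and TATAAA occurs in 11.1% of promoters. A match to TNACCNNNA lies inside RNU7-1 (bases 92 to 100). The promoter of POLDIP3 beside RNU12 held none of these 3 words and no CCCANNATG, the core of a ZNF143 site, which occurs in 3.74% of promoters.

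RNaseH1-D210N peaks lay at 77 of the 142 genes (54.2%), beside 42.8% of all genes and 14.1% of the other genes of 300 bp or less. These other short genes include tRNA genes, 80.4% of which had a peak. The share differed widely within the 142. Without the SNAR genes it was 50 of 114, near that of all genes and above that of the other short genes. Peaks lay at 31 of the 35 named U genes (88.6%), at 27 of 28 SNAR genes (96.4%) and at 19 of 79 unnamed genes (24.1%). All 12 unnamed genes within 100 kb of RNU2-1 had a peak, as did all 3 within 1 Mb of an RNVU1 gene, but only 4 of the other 64 (6.25%), a share below that of short genes. The 4 named U genes without a peak were RNU5A-1, RNVU1-8, RNVU1-17 and RNVU1-26.

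**Figure D1:**
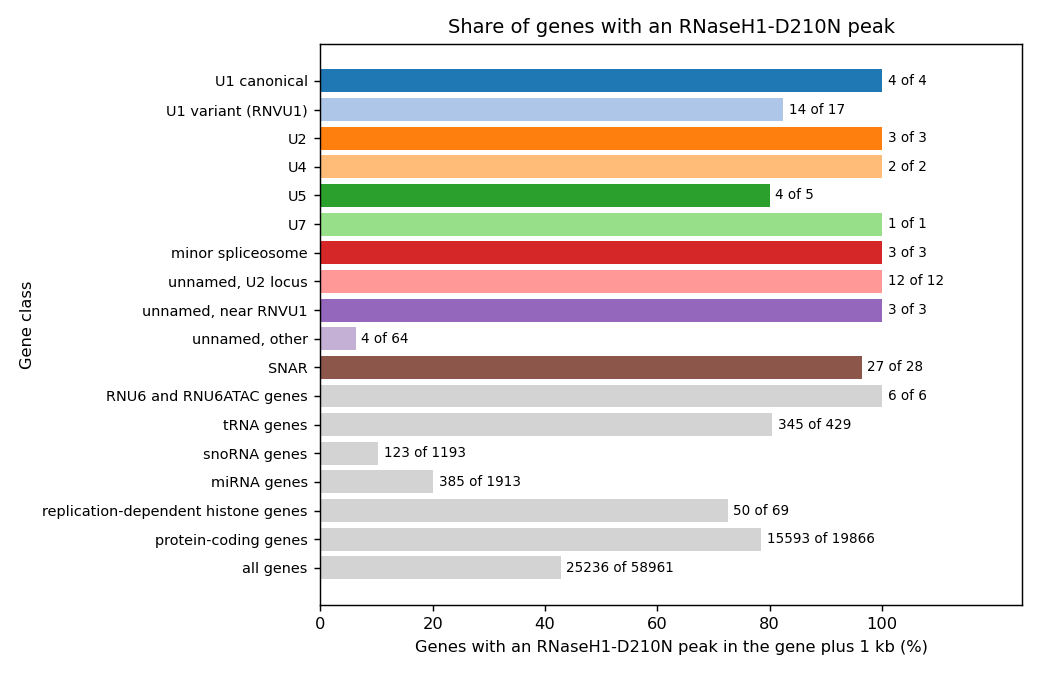
Share of genes (x axis, %) with an RNaseH1-D210N peak in the gene plus 1 kb, by gene class (y axis), with counts beside the bars; grey bars are other gene classes. The classes U1 canonical, U2, U4, U7 and minor spliceosome stand at 100%, RNVU1 at 82.4% and the other unnamed genes at 6.25%.

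REXO4-D386A peaks lay at 0 of the 142 genes, beside 2.61% of all genes and 0.756% of the other short genes. With a background this low, a count of 0 is near it and says nothing particular about snRNA genes. The nearest REXO4-D386A peak was 17871 bp from RNU5E-1, 20185 bp from RNU11 and 25786 bp from RNU4-2, and the median distance over the 142 genes was 617840 bp. None of the 74 distinct strongest RNaseH1-D210N peaks at these genes overlapped a REXO4-D386A peak, beside 2.03% of all RNaseH1-D210N peaks.

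The fold enrichment of a peak is the authors' value, the ratio of fragments at its summit to the expected pileup, and it was used only within a list. For each gene the highest fold in its window was taken, with a 95% exact Poisson interval of the recovered fragments, which covers counting error only. The median over the 77 genes was 4.82, beside 3.40 over all genes with a peak and 3.07 over all RNaseH1-D210N peaks. Over the other short genes with a peak it was 3.60. Those genes include tRNA genes, whose median was 11.3 over the 345 with a peak. For the 142 genes the median was 4.04 when each of the 99 peaks in their windows was counted once. Without the SNAR genes, a setting chosen after seeing the data, it was 4.32. For the 31 named U genes the median was 4.18 (range 2.05 to 11.9), and 23 of them were above 3.40. Of the 31, 28 (90.3%) were above the median of all peaks, beside 67.4% of all genes with a peak and 67.9% of the 1154 other short genes with one. Genes are not replicates: the 77 genes share 74 strongest peaks, many are near-identical copies, and how reads from such copies were placed is not stated in the labels or notes.

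**Figure D2:**
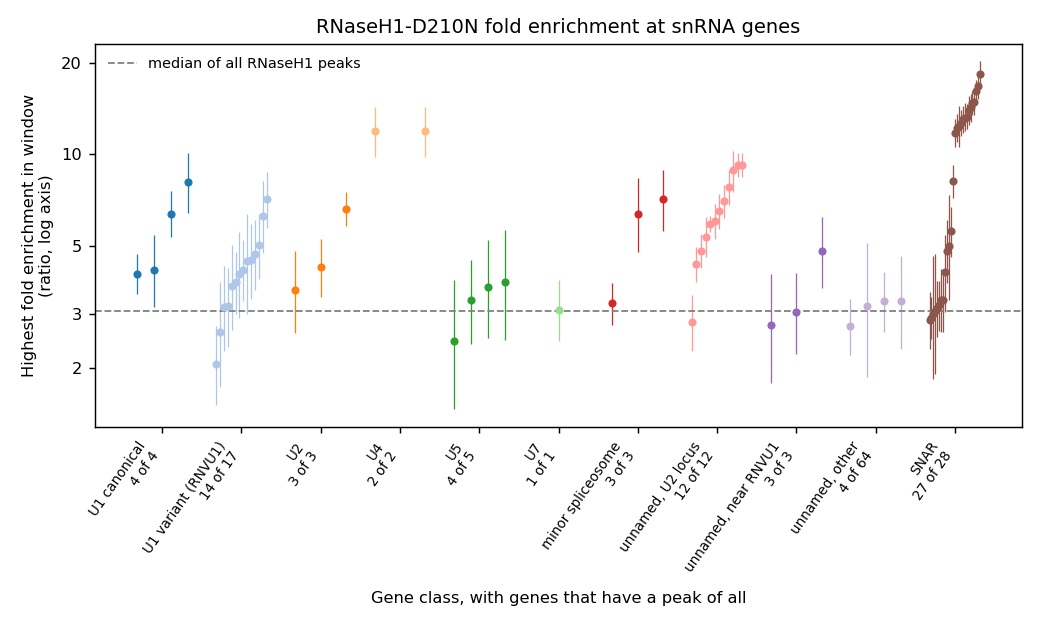
Highest RNaseH1-D210N fold enrichment in the window of each gene with a peak (y axis, ratio, log axis) by class (x axis), with 95% Poisson intervals for counting error; the dashed line is the median of all peaks, 3.07. U4 at 11.9 and the SNAR genes, with a median of 11.8, stand highest, and U5 and U7 lie near the line.

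The 4 canonical U1 genes on chromosome 1 each had 2 peaks, with 1 summit on either side of the gene. RNU1-2 (chr1:16895980-16896143) had the highest fold, 8.12 (6.42 to 10.1), from 76 fragments where 8.48 were expected, with −log10 q of 41.3 and the summit 86 bp below the gene. RNU1-1 (chr1:16514122-16514285) reached 6.39 (5.35 to 7.58), with 131 fragments against 19.6, −log10 q of 57.6 and a summit 22 bp above the gene. RNU1-4 (chr1:16740516-16740679) reached 4.18 (3.15 to 5.45), with 53 fragments against 11.9 and −log10 q of 15.2. RNU1-3 (chr1:16666785-16666948) reached 4.06 (3.49 to 4.70), with 177 fragments against 42.9 and −log10 q of 48.7. RNU1-3 had the most fragments, the highest expected pileup and the lowest fold of the 4. Counting intervals overlapped in 3 of the 6 pairs of genes.

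At each canonical U1 gene, 1 summit lay close to the gene and the other farther out on the opposite side. The close summits were 22 bp (RNU1-1), 105 bp (RNU1-3), 117 bp (RNU1-4) and 86 bp (RNU1-2) from the gene. The far summits were 438, 491, 518 and 500 bp from it, in the same order. The close peak lay on the higher-coordinate side at RNU1-1 and RNU1-3 and on the lower-coordinate side at RNU1-4 and RNU1-2. The gene table gives no strand, so which side is upstream was not analysed here. The far peak had the lower fold at RNU1-1 (4.47, 3.49 to 5.65), at RNU1-3 (3.62, 2.80 to 4.62) and at RNU1-2 (2.19, 1.54 to 3.02). At RNU1-4 the close and far peaks stood at 4.04 (3.44 to 4.72) and 4.18, with overlapping intervals.

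The RNVU1 genes encode variant U1 snRNAs and lie between positions 120850819 and 149637013 of chromosome 1. Peaks lay at 14 of 17, with a median fold of 4.13, beside 5.29 for the 4 canonical genes. The ranges overlapped, from 2.05 to 7.14 for the variants and from 4.06 to 8.12 for the canonical genes, and the difference was not tested. RNVU1-19 (chr1:120850819-120850985) was highest at 7.14 (5.75 to 8.77), with 89 fragments against 11.6, −log10 q of 43.3 and a summit 18 bp from the gene. RNVU1-2A followed at 6.29 and RNVU1-14 at 5.04. RNVU1-7, RNVU1-30, RNVU1-28, RNVU1-1 and RNVU1-27 stood at 4.71, 4.50, 4.46, 4.19 and 4.07. RNVU1-31, RNVU1-15, RNVU1-6 and RNVU1-3 stood at 3.82, 3.71, 3.19 and 3.17. RNVU1-18 at 2.62 and RNVU1-4 at 2.05 (1.51 to 2.73) lay below the list's median, and only RNVU1-4 had an interval wholly below it.

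**Figure D3:**
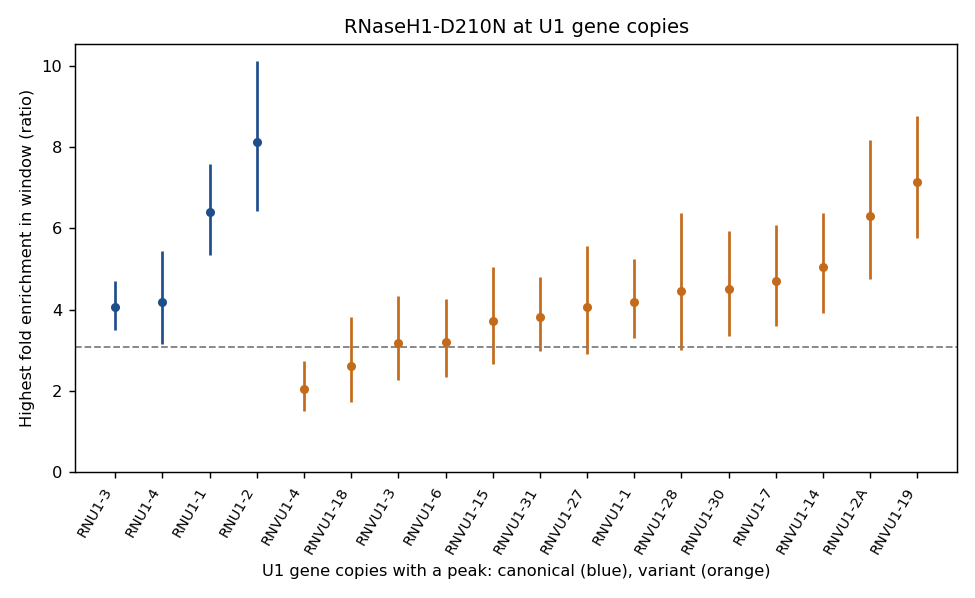
Highest RNaseH1-D210N fold enrichment (y axis, ratio) at the 4 canonical U1 genes (blue) and the 14 RNVU1 genes with a peak (orange), with 95% Poisson intervals for counting error; the dashed line is the median of all peaks, 3.07. Canonical genes span 4.06 to 8.12 and variants 2.05 to 7.14.

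Of the 3 RNVU1 genes without a peak, RNVU1-17 lay 1161 bp from the nearest peak, just outside the window, RNVU1-26 15896 bp and RNVU1-8 20065 bp. Every one of the 14 with a peak had its strongest summit outside the gene, 9 on the higher-coordinate side and 5 on the lower, and at most 209 bp from it. The expected pileup exceeded the list's median of 7.14 at 13 of the 14; its part in these folds was not tested. The 3 unnamed genes within 1 Mb of an RNVU1 gene were LOC124904634, LOC124904613 at a fold of 3.05 and LOC124904631 at 2.75. LOC124904634 stood at 4.82 (3.64 to 6.26), from 54 fragments against 10.4, with −log10 q of 18.3, a width of 605 bp and a summit 43 bp away.

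All 3 named U2 genes had a peak. RNU2-1 (chr17:43233790-43233977) had a 1268 bp peak with its summit inside the gene, at a fold of 6.64 (5.83 to 7.54) from 236 fragments against 34.7, with −log10 q of 107. RNU2-63P (chr2:88016358-88016547) stood at 4.27 (3.40 to 5.28), with 82 fragments against 18.5, −log10 q of 23.9 and a summit 602 bp away. RNU2-2 (chr11:62841619-62841809), which lies within WDR74, stood at 3.59 (2.60 to 4.83), with 41 fragments against 10.7, −log10 q of 9.59 and a summit 559 bp away. At the latter pair of genes the peak did not touch the gene, lying 136 and 230 bp from it.

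Beside RNU2-1, 12 unnamed snRNA genes of 191 to 192 bp lie between positions 43239921 and 43300231 of chromosome 17, and all 12 had a peak. Their median fold was 6.28 (range 2.82 to 9.22). The highest was at LOC124904135, 9.22 (8.44 to 10.1), from 513 fragments against 54.8, with −log10 q of 297 and a summit 87 bp from the gene. The same peak is the strongest in the window of LOC124904136, but its summit lay 1346 bp from that gene. Closer to LOC124904136, another peak stood at 8.56 (7.75 to 9.43) with its summit 95 bp away. LOC124904146 stood at 8.87, LOC124904143 at 7.81 and LOC124904144 at 7.02. LOC124904145, LOC124904142 and LOC124904138 stood at 6.53, 6.04 and 5.92, and LOC124904140, LOC124904141 and LOC124904139 at 5.37, 4.84 and 4.38. LOC124904137 was lowest at 2.82. LOC124904138 had the most fragments, 992 against 167, and the largest −log10 q, 407. Among 55 pairs of distinct peaks, counting intervals overlapped in 21 and stood apart in 34. The median expected pileup here was 36.6, beside 7.14 over the list; its part in these folds was not tested.

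RNU4-2 (chr12:120291759-120291903) and RNU4-1 (chr12:120293093-120293237) shared 1 peak of 1825 bp at a fold of 11.9 (9.83 to 14.3), from 112 fragments against 8.48, with −log10 q of 78.8. This was the highest fold at any named U gene. The peak covered RNU4-2 and had its summit inside it. It ended 219 bp short of RNU4-1, whose edge lay 1208 bp from the summit, so RNU4-1 was counted only through its window. The SIRT4 promoter printed above, with the octamer, lies between both genes.

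Peaks lay at 4 of the 5 U5 genes (80.0%), none with its summit inside the gene, at a median fold of 3.51. RNU5D-1 (chr1:44731069-44731170) stood at 3.81 (2.47 to 5.64), from 23 fragments against 5.30, with −log10 q of 5.99 and a summit 484 bp away. RNU5F-1 (chr1:44721785-44721902) stood at 3.68 (2.51 to 5.24), from 29 fragments against 7.14, with −log10 q of 7.11 and a summit 111 bp away. RNU5E-1 (chr1:11908152-11908272) stood at 3.33 (2.40 to 4.51), from 40 fragments against 11.3, with −log10 q of 8.35 and a summit 622 bp away. RNU5B-1 (chr15:65304677-65304793) stood at 2.45 (1.46 to 3.88), from 16 fragments against 5.95, with −log10 q of 1.68 and a summit 311 bp away. All 6 pairs of counting intervals overlapped, so no order among the 4 was resolved. RNU5A-1 (chr15:65296051-65296167) had no peak in its window, but the nearest lay 1030 bp away, just past the limit of 1 kb. On the inner side of that limit, the nearest peaks of LOC124903097 and SNAR-D lay 621 and 686 bp away.

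RNU7-1 (chr12:6943816-6943878), within C12orf57, stood at 3.10 (2.45 to 3.87), from 76 fragments against 23.8, with −log10 q of 14.3 and a width of 1033 bp. Its summit lay 167 bp away on the higher-coordinate side, near the C12orf57 start used above. The fold of 3.10 is close to the list's median.

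All 3 minor spliceosome genes had a peak. RNU11 (chr1:28648600-28648734), within TAF12-DT, stood at 7.13 (5.62 to 8.92), from 74 fragments against 9.52, with −log10 q of 36.2; its peak of 1698 bp had the summit inside the gene. RNU4ATAC (chr2:121530880-121531009), within CLASP1, stood at 6.39 (4.79 to 8.36), from 51 fragments against 7.14, with −log10 q of 23.0 and a summit 432 bp away. A second peak at RNU4ATAC, on the other side, stood at 2.58 (2.06 to 3.19). RNU12 (chr22:42615244-42615393) stood at 3.25 (2.76 to 3.80), from 157 fragments against 47.6, with −log10 q of 31.9 and a summit 665 bp away. The peak covered the POLDIP3 promoter, but its summit lay outside it. RNU12 had the most fragments of the 3 and the lowest fold.

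Of the 31 named U genes with a peak, 3 had the summit of the strongest peak inside the gene, 21 had it within 200 bp, and 10 were covered whole. The same counts were not made for other short genes, and a short gene fills little of its window. They therefore do not show a preferred position of the summits. At 11 of the 31, an end of a lncRNA or protein-coding gene lay within 1 kb of that summit, and no tRNA gene did at any of the 77 genes. That is 35.5%, near the 30.4% of all RNaseH1-D210N peaks and the 39.5% of the strongest peaks at other short genes. In steps of 100 bp around the gene midpoint, peaks covered the midpoint of 4 of 4 canonical U1 genes, 8 of 17 RNVU1 genes and 6 of the 14 U2, U4, U5, U7 and minor spliceosome genes. Coverage was highest 100 bp above the midpoint for RNVU1 (64.7%) and 400 bp above it for the 14 (71.4%). From 3000 to 5000 bp away it averaged 0% for canonical U1 and RNVU1 genes and 2.72% for the 14.

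**Figure D4:**
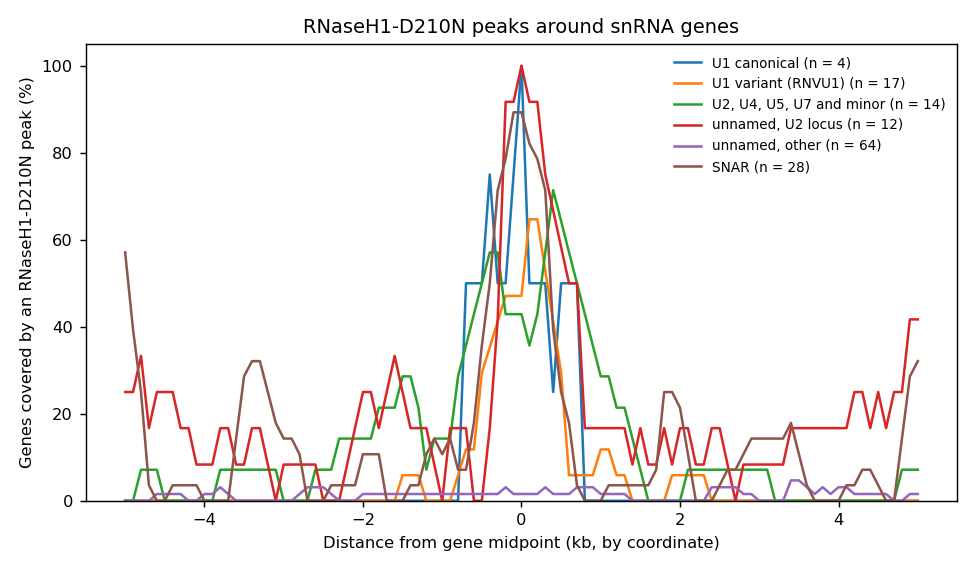
Share of genes covered by an RNaseH1-D210N peak (y axis, %) by distance from the gene midpoint (x axis, kb, by coordinate and not by strand), 1 line per class. Coverage falls to 0% at 3000 to 5000 bp for U1 genes, and averages 17.7% there in the U2 locus and 11.7% at SNAR genes, whose copies lie close together.

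Of the other 64 unnamed genes, 60 had no peak, and their median distance to the nearest was 16414 bp. The 4 with a peak were LOC124904122, LOC124904147 at a fold of 3.30, LOC124903097 at 3.19 and LOC124900516 at 2.73. LOC124904122 stood at 3.32 (2.31 to 4.65), from 32 fragments against 8.93, with −log10 q of 6.65, a width of 589 bp and a summit 166 bp away, and it was the 1 gene of the 4 that its peak touched.

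The highest folds of the 142 were at SNAR-A genes. All 14 SNAR-A genes had a peak of at least 11.8, with a median of 13.6. The highest was at SNAR-A5 (chr19:50100891-50101011), 18.4 (16.6 to 20.2), from 408 fragments against 21.3, with −log10 q of 353 and a summit 16 bp away. All 5 SNAR-C genes, which are interspersed with or next to SNAR-A genes, had a peak with a median of 3.14, from SNAR-C1 at 2.87, SNAR-C3 at 2.92, SNAR-C5 at 3.14 and SNAR-C4 at 3.20 to SNAR-C2 at 5.60. In all 70 pairs of a SNAR-A and a SNAR-C gene the counting intervals stood apart. At the 9 SNAR-A genes between positions 50092489 and 50128522 of chromosome 19, every summit lay on the higher-coordinate side, 3 to 21 bp from the gene. These were SNAR-A5, SNAR-A11 at a fold of 16.1, SNAR-A10 at 14.3, SNAR-A9 at 14.0, SNAR-A8 at 13.2, SNAR-A4 at 13.1, SNAR-A14 at 12.7, SNAR-A7 at 12.2 and SNAR-A6 at 11.8. At the other 5, between positions 47907678 and 47945043, no summit lay on the higher-coordinate side. The summit was inside SNAR-A13 (16.8), SNAR-A1 (14.8) and SNAR-A2 (13.3), and on the lower-coordinate side of SNAR-A3 (14.9) by 4 bp and of SNAR-A12 (12.4) by 129 bp. SNAR-B1 stood at 8.17, SNAR-I at 5.03, SNAR-G2 at 4.83 and SNAR-G1 at 4.12. SNAR-B2 and SNAR-D shared a peak at 3.34, SNAR-E stood at 3.07 and SNAR-H at 2.99. SNAR-F had no peak in its window, and the nearest lay 5215 bp away. The median expected pileup at SNAR genes was 24.4, beside 7.14 over the list, and its part was not tested.

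**Figure D5:**
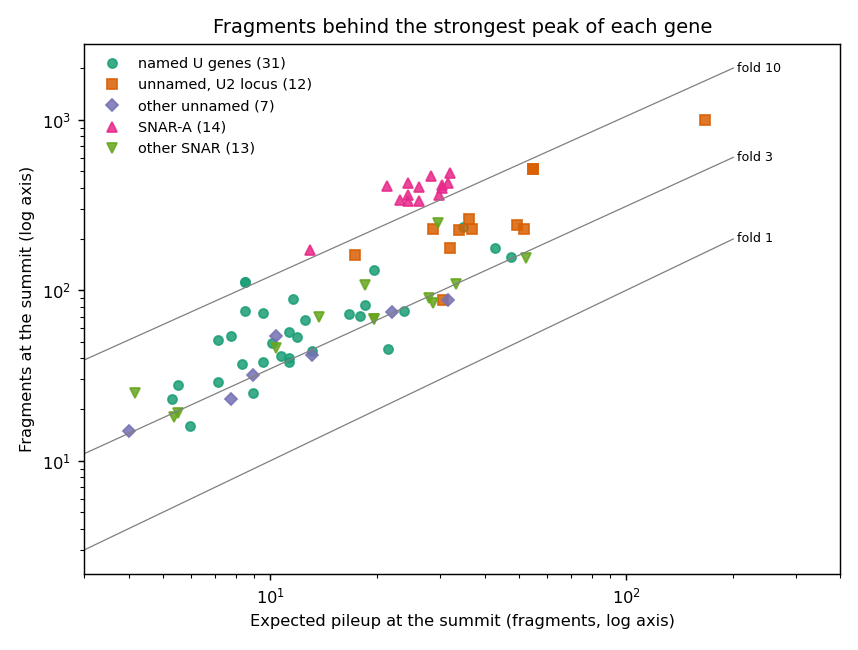
Fragments at the summit of the strongest RNaseH1-D210N peak (y axis, log axis) against the expected pileup there (x axis, log axis) for the 77 genes with a peak; grey lines mark folds of 1, 3 and 10. SNAR-A genes lie above the line of 10, and the U2 locus has both high fragments and a high expected pileup, with a median of 36.6.

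Other classes of genes gave values on either side of these. The RNU6 genes and RN7SK, transcribed by RNA polymerase III, also use a proximal sequence element. All 6 RNU6 and RNU6ATAC genes had an RNaseH1-D210N peak, with a median fold of 3.69 and 12.2 at RNU6-2, and RN7SK stood at 15.1. Of 429 tRNA genes, 345 (80.4%) had a peak, with a median fold of 11.3. Among other short RNA genes, the share was 10.3% of 1193 snoRNA genes and 20.1% of 1913 miRNA genes. The replication-dependent histone genes, whose mRNAs U7 helps to process, had a peak at 50 of 69 (72.5%), with a median of 3.02. These shares and medians are descriptions and their differences from the snRNA genes were not tested.

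The protein genes of the snRNA pathway were taken from a list of 59. All 59 had an RNaseH1-D210N peak, beside 78.5% of 19866 protein-coding genes, and 58 had one within 1 kb of a gene boundary, beside 67.1%; GEMIN4 was the exception. The median fold was 3.65, beside 3.46 over protein-coding genes with a peak, and 43 of the 59 (72.9%) were above the median of all peaks, beside 70.1% of protein-coding genes with a peak. By role, the median was 4.05 for the 8 SNAPc subunits and transcription factors, 3.74 for 14 Integrator subunits, 3.70 for 12 Sm core, U1 and U2 proteins and 2.83 for 7 proteins of the U7 and minor snRNPs. The highest were ELL, a subunit of the little elongation complex that acts at snRNA genes, at 8.04 (6.54 to 9.78), the Integrator subunit INTS12 at 4.96 (4.14 to 5.90), the SNAPc subunit SNAPC3 at 4.86 (3.26 to 6.99) and the Sm protein gene SNRPD1 at 4.85 (3.02 to 7.44). Each fold was the highest anywhere in the gene or its flanking 1 kb, not only at a boundary. Summits lay 594 bp (ELL), 59 bp (INTS12), 446 bp (SNRPD1) and 20121 bp (SNAPC3) from the nearer boundary. Of the other SNAPc and transcription factor genes, SNAPC4, POU2F1 and ZNF143 had it 6596, 20116 and 23985 bp away. At SNAPC1, SNAPC2, SNAPC5 and TBP it lay at most 103 bp away. REXO4-D386A peaks lay at 0 of the 59, beside 5.50% of protein-coding genes. Of 48 of these genes with a promoter in the RefSeq table, 0 held the octamer, 11 (22.9%) the start of a proximal sequence element, 2 (ICE2 and LSM10) the ZNF143 core and 1 (SNRPC) TATAAA.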

How the data were processed

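Flag ChIP-seq of U2OS cells was analysed from 2 peak lists in hg38. The submitters' processing notes name MACS2 2.1.0.20150731, a peak caller, along with HISAT2 2.2.1, SAMtools 1.17, Trim Galore 0.6.10, deepTools 3.5.1 and Cufflinks, in no stated order. Not given in the sources used here are the control, libraries entered, pooling and threshold; peak names carry the label ChIPseq2. As deposited by the authors, every peak has a fold enrichment (a ratio) and its p and q as −log10 values; the largest q was 0.198 for RNaseH1-D210N and 0.179 for REXO4-D386A.

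From these, the summit's fragment number and its expected pileup were solved for, taking the integer whose Poisson tail matches p at that fold within 0.05 fragments, with 1 added to each in the fold. This gave whole numbers for 54623 RNaseH1-D210N peaks (100%) and 1459 of 1460 REXO4-D386A peaks (99.9%). Median fragments were 23.0 against 7.14 expected and 80.0 against 36.6. Fold was compared only within a list.

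Of 59792 genes in the RefSeq table, 831 were left out (scaffolds, mitochondrial or no position); of 156 snRNA genes, 7 were off assembled chromosomes. The members and gene lists were chosen with earlier results of these data known. Fold, interval, fragments, −log10 q and summit distance (and some widths) are given for every canonical copy with a peak. The same values are given for the member of highest fold in each class. For the 4 pathway genes of highest fold, only fold, interval and the summit's distance to a gene boundary are given. The rule also names every member, but the 60 unnamed genes without a peak are given as a count. The promoter table held 0 of the 142 genes, so the planned search for promoter words was run at neighbours, and promoters of the members were not analysed here. The overlap and recovery code was tested on simulated data. Scripts ran in Python 3.11.15 with pandas 2.3.3, SciPy 1.17.1, matplotlib 3.10.9 and NumPy 2.4.6.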

Additional observations from a re-analysis of the deposited data

How the results depend on the processing

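Of 45 alternative settings, 43 met the rule for an unchanged result and 2 did not. A count had to stay within 1.5 times the reported count. A median fold had to stay inside the counting interval of the peak whose fold was nearest the reported median. Without the SNAR genes, an alternative chosen after seeing the data, 50 of 114 genes had an RNaseH1-D210N peak in place of 77 of 142. Here counts were compared although fewer genes entered. The share without SNAR genes is near the 42.8% of all genes, whose median length was 5556 bp. It is above the 14.1% of other genes of 300 bp or less. When a peak had to cover at least 50% of the gene, 19 of 35 named U genes had one in place of 31. Windows of 0, 250 and 2500 bp gave 25, 30 and 33 of the 35. REXO4-D386A gave 0 in every setting run, and its fold at snRNA genes has no value because no gene had a peak. No other count was possible, since its nearest peak lay 17871 bp from any of the 142 genes. The settings other than a wider window can only keep or lower a count. These settings are among the 43 and say nothing about how far the result depends on processing.

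No paired analysis was possible because the peak lists carry no value per library, although the labels number the replicates; leaving out a replicate could not be run for the same reason. Library depth is unknown. The fewest fragments behind a strongest peak were 15, at LOC124903097, and among named U genes 16, at RNU5B-1, so their counting intervals are wide.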
